A study of Bos taurus with 10 samples.

Results

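Vesicle traffic genes of the RAB, ARF, ARL, STX, VAMP and VPS families were measured in the loin muscle (longissimus dorsi) of 10 Hanwoo, a Korean breed of beef cattle. Members were chosen by symbol alone: a probe set, the group of short probes that reads 1 transcript, counted if the platform annotation gave it exactly 1 gene symbol and that symbol was a family name with a number and, for RAB, ARL and VPS, an optional letter. This found 119 probe sets for 90 of 9155 named genes, and the brightest probe set stood for each gene. They were 39 RAB, 5 ARF, 4 ARL, 11 STX, 5 VAMP and 26 VPS genes. The samples form 1 group, numbered 1 to 10, with poly(A) RNA on a GeneChip Bovine Genome Array, an age of about 2 years given for animal 1, and no genotype or treatment in the labels. Beef traits are not analysed here, and these genes are described by their signal, their spread between animals, and their covariation with scores of other cell types and with a labelling control.

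RAB, ARF and ARL proteins are small GTPases that switch between an active form on membranes and an inactive form, and each marks a compartment or a transport step by recruiting its own effectors. Syntaxins (STX) and VAMPs are SNARE proteins on opposite membranes that zip together and drive fusion. VPS proteins carry the names of yeast vacuolar sorting mutants, and most are subunits of complexes that sort, bud or tether endosomes: retromer, HOPS and CORVET, GARP and EARP, and the ESCRT machinery. In skeletal muscle these pathways move the glucose transporter GLUT4 between storage vesicles and the surface membrane and carry autophagosomes to lysosomes. The symbol rule also took in VPS72, which is known as a chromatin protein, and it left out RAB9A and RAB33A, whose probe sets carry several symbols.

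Signals are given as log2(intensity + 16) after quantile normalization. On this scale the SDs and differences of dim genes are understated, and fold ranges are ratios of normalized intensity + 16. Each probe set has its own binding strength, so the order of signals between genes is not an order of transcript amounts. Muscle markers were bright: the 13 measured of 15 muscle markers averaged 15.66 to 15.72 in every animal, with the troponin gene TNNC1 brightest at 16.05. TNNC1 also had the highest mean and the smallest SD of all tested genes. Quantile normalization gives the top ranks the same values on every array, so this evenness is not a measure of muscle content. Markers of other cell types were measured as well. The averages per animal ran from 9.05 to 10.63 over 12 tested adipocyte markers (LPL brightest), from 9.59 to 11.34 over 16 connective tissue markers (COL3A1) and from 6.90 to 8.69 over 11 leukocyte markers (CTSS). They ran from 8.61 to 9.34 over 8 endothelial (EMCN), from 9.21 to 10.12 over 8 smooth muscle (ACTA2) and from 8.42 to 9.47 over 3 nerve and glia markers (S100B), and the only tested red cell gene, HBA, averaged 6.99. Animal 5 stood apart in labelling, where the spiked poly(A) RNAs were brighter at their 3' than their 5' end by 2.67 log2 units, compared with 0.78 to 1.06 in animals 1 to 4 and 6 to 10. In such bulk RNA, fewer cells of a type and less RNA per cell cannot be told apart.

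Most of the members had a signal above the filter and an SD under 0.5 between animals, as did most named genes. A gene was tested if its mean signal exceeded 6.98, the median over probe sets, and 71 of the 90 members (78.9%) were, against 68.5% of all named genes. ARF3 at 7.12 was the dimmest member inside this limit and RAB27A at 6.95 the brightest outside it. The tested members were 26 RAB, 4 ARF, 3 ARL, 9 STX, 5 VAMP and 24 VPS genes. Over them the median mean signal was 9.09, against 9.24 over the 6271 tested genes, and the median SD was 0.34, against 0.36. An SD over 0.5 was found in 8 of the 71 members, or 11.3%, against 22.1% of all tested genes. In 28 members the highest and lowest animals were less than 1 log2 unit apart, in 36 they were 1 to 2 units apart, and in 7 they were more than 2 units apart. These shares are descriptions and were not tested. Without animal 5 the count of members over 0.5 was again 8, while the share of all tested genes was 14.5%.

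**Figure D1:**
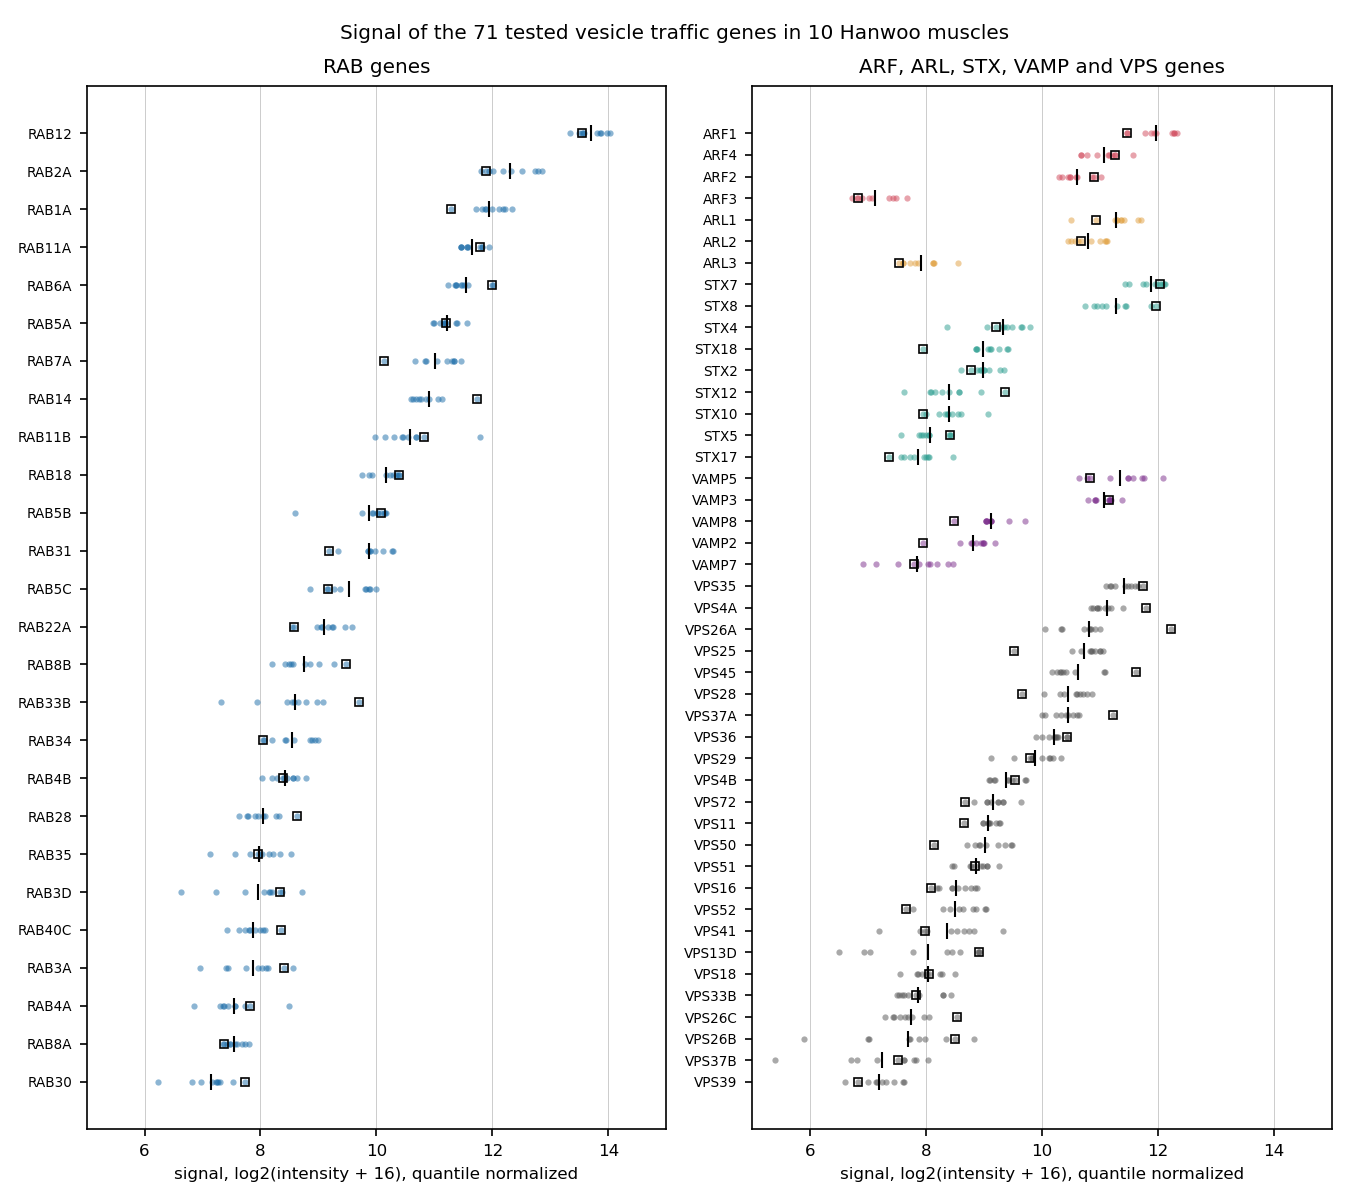
Signal of the 71 tested members, in log2(intensity + 16) after quantile normalization, with a point for each of 10 animals, a vertical tick at the mean and an open square on animal 5. RAB12 lies highest at 13.71 and ARF3 lowest at 7.12, and animal 5 lies at 1 end of the row in 33 members.

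Several of the brightest members act between the endoplasmic reticulum and the Golgi. RAB2A, which acts in transport at the early Golgi, had 11.80 at the lowest, 12.25 at the median and 12.86 at the highest, with a mean of 12.30 ± 0.40 (SD, n = 10). Its low values lay in animals 5, 6, 8 and 10, and its high values in animals 2, 4 and 9. RAB1A, needed for vesicles that leave the endoplasmic reticulum, ran from 11.29 over a median of 11.94 to 12.33 (mean 11.94 ± 0.30), with animal 5 lowest. ARF1, the GTPase that recruits the COPI coat to the Golgi, ran from 11.46 over 11.95 to 12.32 (11.96 ± 0.32), and animals 5 and 6 were both at its lower end. RAB6A, a Golgi RAB of retrograde transport, had 11.24, 11.47 and 12.02 (11.54 ± 0.26), with animals 4 and 5 above the rest. ARL1, which recruits golgin tethers to the trans-Golgi, had 11.28 ± 0.35. Its lowest value, 10.50, was in animal 4, and without that animal the SD was 0.22. STX18, a SNARE of the endoplasmic reticulum, had 8.99 ± 0.42, with 7.94 in animal 5 and 8.85 to 9.42 in the others, and an SD of 0.22 without animal 5. ARF3, a close relative of ARF1, was dim at 7.12 ± 0.33. RAB33B, which acts at the Golgi and in autophagosome formation, was the most variable RAB. It ran from 7.31 in animal 1 over a median of 8.60 to 9.70 in animal 5, a 5.22-fold range, with an SD of 0.64. Over the 13 tested members of this step the median SD was 0.32.

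Endosomal RABs included the brightest member, and members of early and recycling endosomes had both small and larger SDs. RAB12, which acts in the traffic of recycling endosomes to lysosomes, had 13.34 at the lowest, 13.70 at the median and 14.04 at the highest (13.71 ± 0.23). Animal 6 was lowest and animal 10 highest, a 1.62-fold range. RAB11A, a marker of recycling endosomes, ran from 11.45 over 11.57 to 11.95 (11.65 ± 0.18), with animal 9 lowest and animal 3 highest. VAMP3, the SNARE of recycling endosomes also called cellubrevin, had 10.78, 11.15 and 11.38 (11.07 ± 0.18). RAB5A, the early endosome RAB, had 11.21 ± 0.19. Paralogs of these genes had larger SDs. RAB11B had 10.59 ± 0.50, with 11.79 in animal 9 and 10.83 at most elsewhere, and its SD without animal 9 was 0.27. RAB5B had 9.88 ± 0.47, with 8.59 in animal 6 and 9.75 to 10.17 in the other 9, and an SD of 0.13 without that animal. RAB5C had 9.52 ± 0.40, lowest in animal 2, at 8.85, and highest in animal 9. RAB4A, a RAB of fast recycling, had 7.55 ± 0.42, and its SD was 0.28 without animal 2, which held the highest value, 8.49. RAB14, between the trans-Golgi and endosomes, stood at 11.73 in animal 5 and 10.59 to 11.12 in the others, and its SD of 0.34 was 0.19 without animal 5. STX12, an endosomal syntaxin, was the most variable STX gene. It ran from 7.62 in animal 6 over 8.33 to 9.36 in animal 5, with a mean of 8.40 ± 0.49. No member of the 16 in this group had an SD over 0.5, and their median SD was 0.38, against 0.34 over all tested members.

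The late endosome and lysosome were represented by 7 tested members. STX7, a syntaxin of late endosome fusion, was the brightest STX gene, with 11.42 at the lowest, 11.96 at the median and 12.12 at the highest (11.87 ± 0.25), and animals 6 and 10 were below the others. RAB7A, the RAB that drives fusion with lysosomes, had 11.02 ± 0.41. It was lowest in animal 5, at 10.13, and between 10.66 and 11.46 in the other 9. VAMP7, a lysosomal SNARE with a longin domain, was the most variable VAMP gene, from 6.90 in animal 6 over 7.95 to 8.46 in animal 4 (7.83 ± 0.51). RAB34, a RAB that positions lysosomes and takes part in building cilia, had 8.54 ± 0.37, with animals 5 and 10 at the bottom, at 8.05 and 8.06, and animal 6 at the top.

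Members that serve secretion and the surface membrane gave mixed signals. VAMP5, a VAMP known from muscle, was the brightest VAMP gene, with 10.64, 11.49 and 12.08 at the lowest, median and highest (11.35 ± 0.48). Animals 1, 5 and 9 were lowest and animal 6 was highest. VAMP2 and STX4 form the fusion complex that delivers GLUT4 to the surface membrane. VAMP2 had 8.80 ± 0.34, with 7.95 in animal 5 and 8.58 to 9.18 elsewhere, and an SD of 0.17 without animal 5. STX4 had 9.32 ± 0.40, with 8.36 in animal 6 and 9.05 to 9.80 elsewhere, and an SD of 0.24 without animal 6. RAB8A, a GTPase of surface delivery that responds to insulin in muscle cells, had the smallest SD of all 71 members, 7.55 ± 0.16, from 7.35 to 7.80. Its second probe set had an SD of 0.41, so this steadiness is that of 1 probe set. RAB3A and RAB3D, RABs of regulated exocytosis, had 7.87 ± 0.49 and 7.96 ± 0.61. RAB3D was lowest in animal 1, at 6.63, and highest in animal 6, at 8.72, and its SD without animal 1 was 0.42. RAB18, the RAB of lipid droplets, had 10.17 ± 0.23, a 1.55-fold range.

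Among the VPS genes, the spread differed from subunit to subunit of the same complex. Retromer, which returns receptors from endosomes to the Golgi and the surface, had a bright and steady core subunit, VPS35, at 11.10, 11.45 and 11.75 (11.42 ± 0.22). VPS26A, which binds VPS35, had 10.04, 10.82 and 12.23 (10.80 ± 0.59), with animal 5 above the rest and animal 9 lowest. Its SD was 0.33 without animal 5, and also 0.33 when its probe sets were averaged. VPS26B, the alternative subunit, was dimmer and much more variable. It ran from 5.90 in animal 6 over 7.79 to 8.83 in animal 10, a 7.64-fold range, the widest among the tested members, with an SD of 0.86. Its deposited intensity in animal 6 was 52.1, where the array median was 134. The lowest values of VPS26B, VPS37B, VPS13D, RAB3D and VAMP7 all lay below the filter level of 6.98. So did those of RAB3A, RAB4A, RAB30, VPS39 and ARF3. The spread of these members thus includes dim readings, and how much of it is measurement noise was not tested. VPS29, the remaining core subunit, had 9.88 ± 0.36. HOPS and CORVET tether endosomes to each other and to lysosomes. Their shared subunit VPS11 was among the 5 steadiest members (9.07 ± 0.18), and animal 5 alone was apart, at 8.64 against 8.98 to 9.27, with an SD of 0.11 without it. VPS41, a HOPS subunit, had 8.36 ± 0.60, with 7.19 in animal 2, 9.32 in animal 9 and a median of 8.48. Its second probe set had an SD of 0.21 and r = 0.026 with the brightest.

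ESCRT sorts ubiquitin-tagged cargo into the lumen of endosomes, and its 7 tested members had SDs from 0.17 to 0.78. VPS36, an ESCRT-II subunit, had 9.90, 10.23 and 10.44 (10.21 ± 0.17). Its other probe sets had SDs of 0.33 and 0.34, so this small SD is that of 1 probe set. VPS25, from the same subcomplex, had 9.52 in animal 5 and 10.51 to 11.05 in the other 9 (10.72 ± 0.45), and its SD was 0.18 without animal 5. VPS28, an ESCRT-I subunit, had 9.66 in animal 5 and 10.03 to 10.86 in the others (10.45 ± 0.37). VPS37B, another ESCRT-I subunit, ran from 5.40 in animal 6 over 7.56 to 8.03 in animal 2 (7.24 ± 0.78), and its SD without animal 6 was 0.47. GARP and EARP tether vesicles at the trans-Golgi and at recycling endosomes. Their shared subunit VPS52 had an SD of 0.48, with animals 5 and 6 lowest at 7.65 and 7.77 and a median of 8.59. VPS50, which is specific to EARP, had 9.01 ± 0.41 and was also lowest in animal 5. The most variable member was VPS13D, a lipid transfer protein at organelle contacts. It had 6.49 in animal 2, 6.93 in animal 10 and 7.04 in animal 6, against 7.77 to 8.91 in the other 7, with an SD of 0.91, or 0.62 when its probe sets were averaged. Its second probe set, below the filter at a mean of 6.52, had an SD of 0.93 and r = -0.083 with the brightest.

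**Figure D2:**
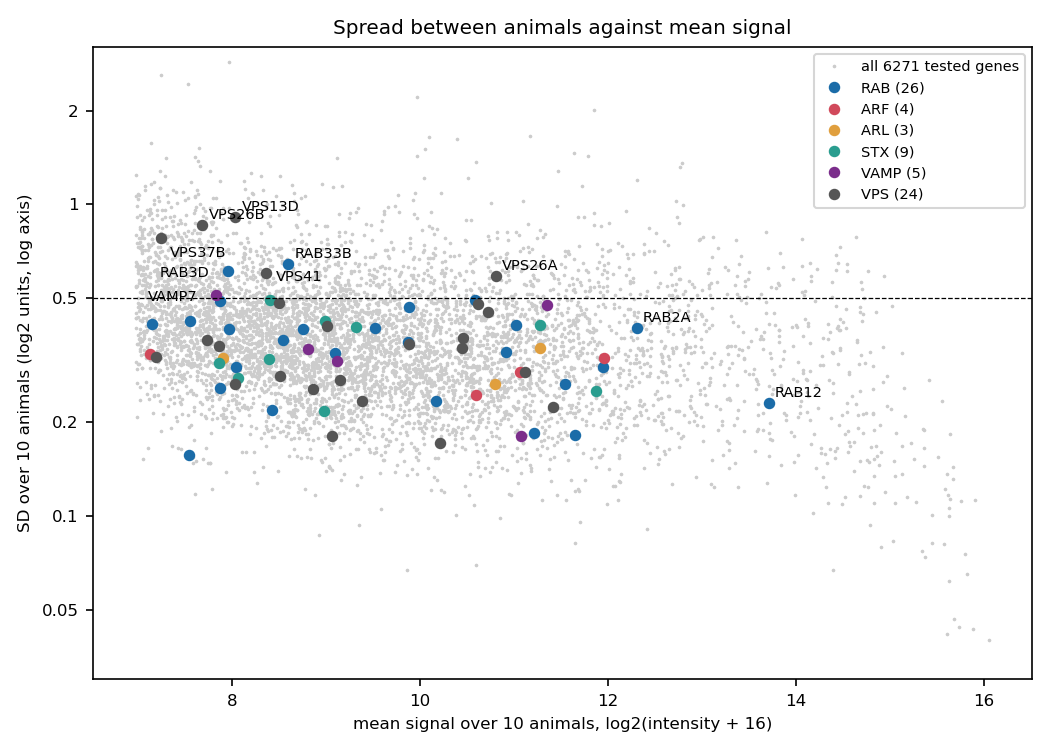
SD over the 10 animals against mean signal, with the 71 tested members coloured by family and all 6271 tested genes in grey, and the SD on a log axis. The dashed line marks an SD of 0.5, and 8 members lie above it: VPS13D, VPS26B, VPS37B, RAB33B, RAB3D, VPS41, VPS26A and VAMP7.

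The naming rule, given further on, left out 32 tested members, among them RAB5A, RAB18 and VPS29 described above. These 32 had means from 7.15 to 11.27 and SDs from 0.19 to 0.48. They were RAB4B, RAB5A, RAB8B, RAB18, RAB22A, RAB28, RAB30, RAB31, RAB35 and RAB40C; ARF2, ARF4, ARL2 and ARL3; STX2, STX5, STX8, STX10 and STX17; VAMP8; and VPS4A, VPS4B, VPS16, VPS18, VPS26C, VPS29, VPS33B, VPS37A, VPS39, VPS45, VPS51 and VPS72. In each the ratio of the highest to the lowest animal was at most 2.86 on the normalized intensity + 16 scale, and it can be larger in the deposited intensities. The 19 members below the filter had means from 5.03 to 6.95, and 13 of them were RAB genes. They were RAB3B, RAB3C, RAB7B, RAB9B, RAB15, RAB19, RAB25, RAB26, RAB27A, RAB27B, RAB29, RAB37, RAB40B, ARF5, ARL6, STX6, STX19, VPS53 and VPS54. RAB3B and RAB3C were thus below the filter, while RAB3A and RAB3D of the same subfamily were above it, at 7.87 and 7.96. Of the 14 members grouped under secretion and the surface membrane, 7 (50.0%) were below the filter, against 31.5% of all named genes, a difference that was not tested. The functional groups were drawn up after the values were seen.

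Animal 5 held the lowest value of 18 tested members and the highest of 15, or 46.5% of the 71 together. Over all tested genes animal 5 was at an end in 48.6%. Members at the bottom in animal 5 included ARF1, RAB1A, RAB7A, VAMP2, VAMP8, STX17, VPS25 and VPS28, and those at the top included RAB14, RAB33B, STX8, STX12, VPS26A, VPS35, VPS4A and VPS45. Animal 6 was lowest in 13 members, or 18.3%, against 10.8% of all tested genes. These 13 included RAB5B, RAB4A, STX4, STX12, VAMP7, VPS26B and VPS37B. Animal 6 also had the highest connective tissue and leukocyte averages, and the fits against those scores are given further on.

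**Figure D3:**
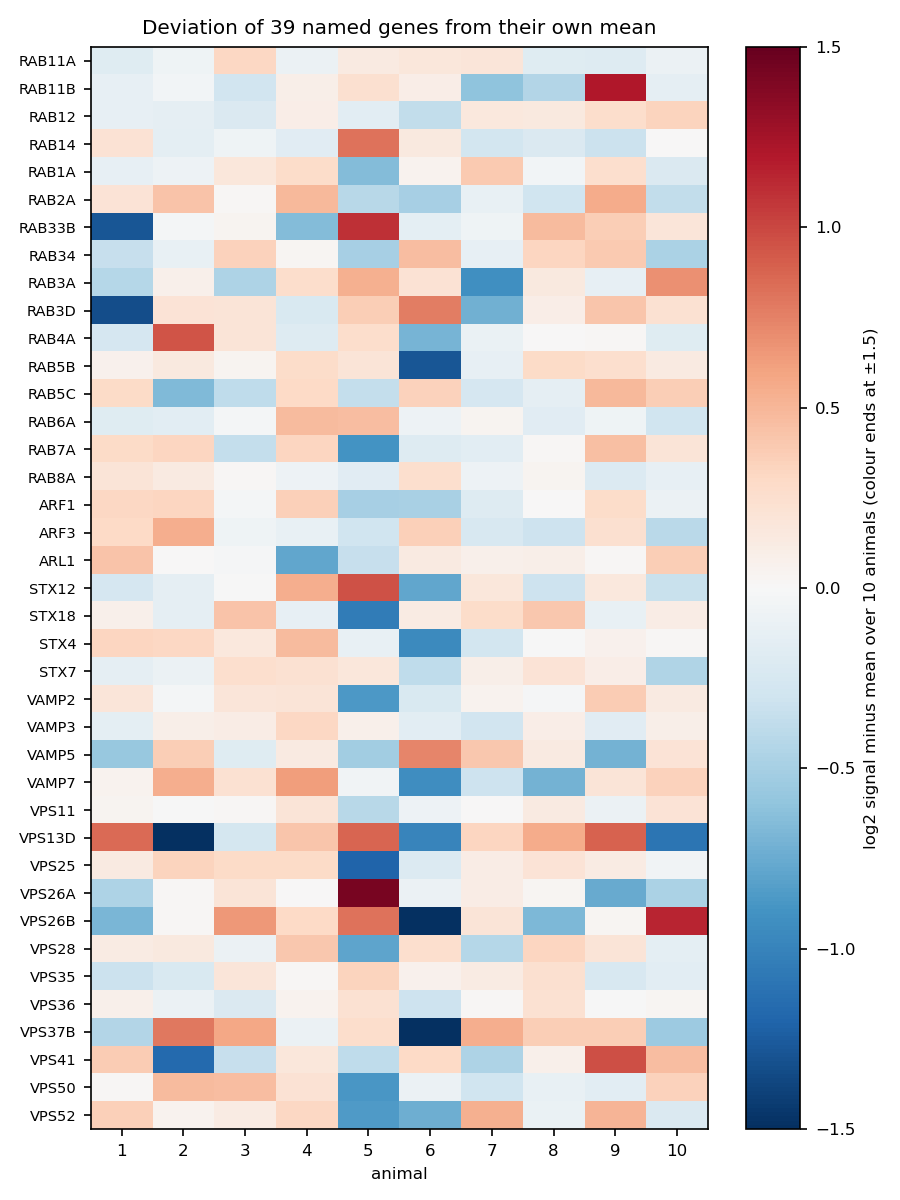
Deviation of 39 members from their own mean over the 10 animals, in log2 units, with animals in columns and genes in rows; the colour scale ends at 1.5 in both directions. The column of animal 5 holds the largest deviations of STX18, VAMP2, VPS25, VPS26A and VPS28, and that of animal 6 those of RAB5B, STX4, VPS26B and VPS37B.

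The labelling control was used to ask which members moved with a technical measure. In limma, with the 3' to 5' difference of the spiked RNAs as covariate and Benjamini-Hochberg adjustment over all tested genes, 6 of 71 members fell and 2 rose at an adjusted p below 0.05. Over all tested genes 11.1% fell and 4.37% rose, so the members' shares of 8.45% and 2.82% were near this background. At an unadjusted p below 0.05 there were 10 members on each side (14.1%), against 18.5% of genes lower and 10.9% higher. Slopes were above 0 in 34 members and in 46.2% of all tested genes. The 6 that fell were VPS25 (-0.43 log2 per SD of the control difference, SE 0.07, adjusted p = 0.00235), STX18 (-0.36, adjusted p = 0.0169), VPS50 (-0.33, adjusted p = 0.0253), RAB7A (-0.31, adjusted p = 0.0473), VAMP2 (-0.30, adjusted p = 0.0183) and VPS28 (-0.29, adjusted p = 0.0434). VPS26A (0.48, SE 0.11, adjusted p = 0.0154) and RAB14 (0.29, adjusted p = 0.0211) rose. With each animal left out in turn, RAB7A passed in 2 and VPS28 in 3 of 10 cases, and the other 6 members in 9. In all 8, animal 5 lay outside the range of the other 9 animals. The fit rests on that animal: without it 0 members and 0 genes passed in limma, with 3 members at an unadjusted p below 0.05, and the slopes of VPS26A and STX18 changed sign, to -0.09 and 0.04. In animal 5, the levels of these 8 genes and the labelling cannot be told apart.

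**Figure D4:**
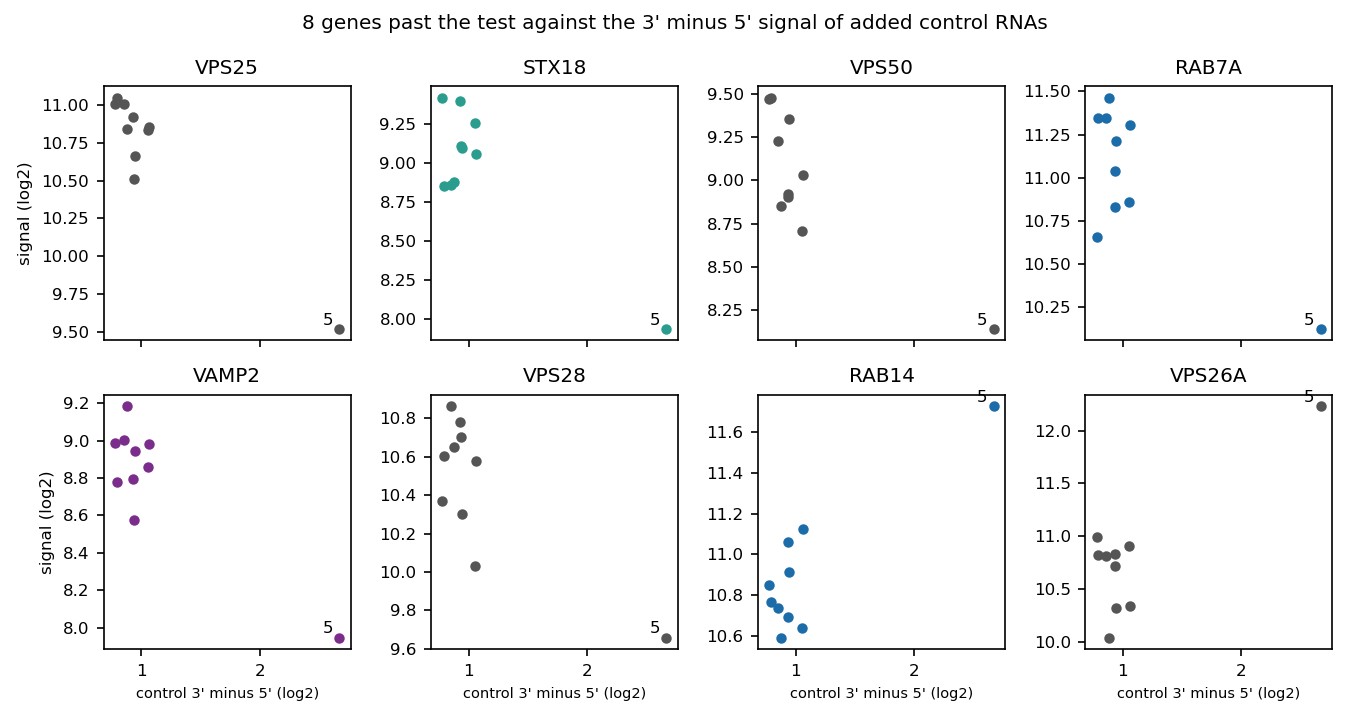
Signal of the 8 members past the test (vertical axes, log2) against the 3' minus 5' difference of spiked poly(A) RNAs (horizontal axis, log2), with a point for each animal and animal 5 marked. The other 9 animals lie between 0.78 and 1.06 on the horizontal axis and animal 5 lies at 2.67.

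The adipocyte score asked whether traffic genes varied with fat cell markers, which differ with the marbling of beef. The score is the mean deviation of the 12 tested adipocyte markers. In limma 0 of 71 members passed, and 0 of 6271 genes passed over all (0% higher and 0% lower). The 12 adipocyte markers, each fitted against the score without it, also gave 0 past the test. As the fit did not call these markers either, it cannot show that traffic genes do not vary with fat cells. At an unadjusted p below 0.05, 1 member had a slope above 0 and 0 had one below 0, against 4.27% and 2.41% of all tested genes. That member was RAB1A, whose slope was 0.23 log2 units for each SD of the score (SE 0.09), with an adjusted p = 0.648 in limma. VPS41 followed at 0.32 (SE 0.16, adjusted p = 0.747), and VPS26A and RAB3A had the smallest p among slopes below 0, at -0.27 and -0.23. These slopes moved with single animals, to 0.12 for VPS41 without animal 9, -0.10 for VPS26A without animal 5 and -0.15 for RAB3A without animal 7. RAB18, the lipid droplet RAB, had a slope of -0.03 (SE 0.09, adjusted p = 0.96). Of the 71 slopes 37 were above 0, with a median of 0.01, against 55.9% and a median of 0.02 over all tested genes.

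Among the 3 cell type scores, the connective tissue score gave the smallest unadjusted p of a member. RAB34 had a slope of 0.33 log2 units for each SD of that score (SE 0.08), with an unadjusted p = 0.0018 in limma, but its adjusted p = 0.171 did not pass. Its slope stayed between 0.30 and 0.34 when each animal was left out in turn, with adjusted p from 0.15 to 0.392. RAB34 also had slopes above 0 with the leukocyte score (0.26, limma adjusted p = 0.245) and the adipocyte score (0.21, adjusted p = 0.747). The scores were not fitted together, and animal 6 was highest in both the connective tissue and leukocyte scores. A relation of RAB34 to 1 cell type alone is thus not shown. In limma 0 of 71 members passed, against 0.0957% of all tested genes higher and 0% lower. Only 1 of the 16 connective tissue markers passed, so the lack of member calls does not show a lack of relation. At an unadjusted p below 0.05 there were 2 members on each side, against 5.5% of genes higher and 3.09% lower. Slopes were above 0 in 35 members and in 54.1% of all tested genes. RAB3D was the other member above 0 (0.37, adjusted p = 0.494), and RAB5B (-0.30, adjusted p = 0.484) and STX4 (-0.25, adjusted p = 0.536) were the members below 0. Both negative slopes rested on animal 6, without which they were 0.03 and -0.03, and the RAB3D slope was 0.16 without animal 1.

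The leukocyte score gave no member past the test either. In limma 0 of 71 members passed, against 0.303% of all tested genes higher and 0.0159% lower. Only 2 of the 11 leukocyte markers passed, so here too the lack of member calls does not show a lack of relation. At an unadjusted p below 0.05 there were 4 members above 0 and 6 below 0, against 9.76% and 6.11% of genes. Slopes were above 0 in 35 members and in 54.2% of all tested genes. VPS41 (0.40, SE 0.14) and RAB5C (0.29, SE 0.10) had the smallest p above 0, both with adjusted p = 0.238 in limma. VPS26A (-0.40, SE 0.14, adjusted p = 0.23) and RAB4A (-0.30, SE 0.11, adjusted p = 0.236) had the smallest below 0. The leukocyte score was lowest in animal 5, where VPS26A was highest, and without animal 5 the VPS26A slope was -0.10. The RAB4A slope was -0.19 without animal 6. The VPS41 slopes here and with the adipocyte score are those of its brightest probe set, which had r = 0.026 with its second.

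Partners within a complex, SNARE partners and paralogs were compared over 18 pairs with both genes tested, of 22 listed. The retromer pair VPS26A and VPS35 varied together over the 10 animals. Pearson's r was 0.775, with p = 0.0019 in a two-sided permutation test of 100000 resamples and 0.0342 after adjustment over the 18 pairs. Spearman's rho was 0.830, with a permutation p = 0.00461 that became 0.083 after adjustment. Without animals 5 and 9, the farthest from the median of VPS26A, r was 0.731. It was 0.748 without animal 5, with adjusted p = 0.216. With each animal left out in turn r stayed between 0.733 and 0.837, and the pair passed in 2 of 10 cases, without animal 2 and without animal 8. These values are those of the brightest probe set of VPS26A. Its other probe sets, in order of signal, had r = 0.068 and 0.419 with VPS35, given as descriptions, and when probe sets were averaged r was 0.617 (adjusted p = 0.352). VPS35 and its other partner VPS29 had r = 0.198 and rho = 0.0061 (permutation p = 0.592 and 1; 0.79 for r after adjustment), and r was -0.393 without animals 1 and 6.

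**Figure D5:**
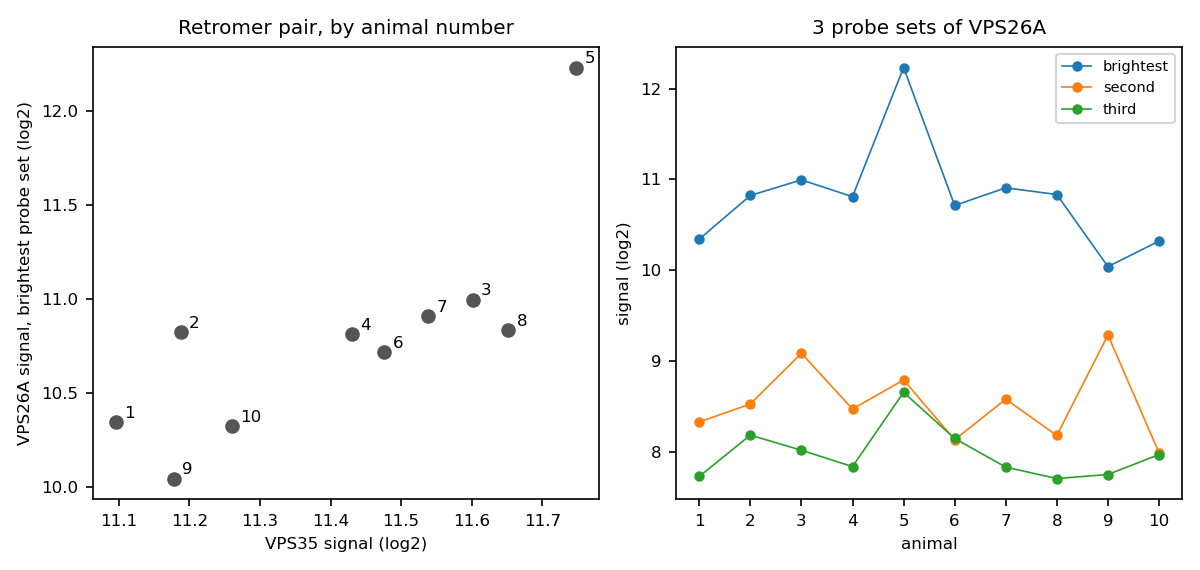
Left, signal of VPS26A against VPS35 (both log2) with a numbered point for each animal; right, the 3 probe sets of VPS26A by animal. Animal 5 is highest for both genes, at 12.23 and 11.75, and the second probe set of VPS26A is highest in animal 9, where the brightest is lowest.

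The other 17 pairs did not pass. The next smallest p belonged to the ESCRT-I pair VPS28 and VPS37A with r = -0.595 and rho = -0.176 (permutation p = 0.0765 and 0.633; 0.528 for r after adjustment). Without animals 5 and 7 r was 0.534, so its sign turned. The pair used the brightest probe set of VPS37A, which had r = -0.833 with its second probe set. The lysosomal SNARE genes STX8 and VAMP7 had r = -0.564 and rho = -0.624 (permutation p = 0.088 and 0.06; 0.528 for r after adjustment), and r was -0.398 without animals 5 and 6. The GLUT4 fusion partners STX4 and VAMP2 had r = 0.404 and rho = 0.624 (permutation p = 0.196 and 0.061; 0.705 for r after adjustment), and r was 0.355 without animals 4 and 6. The paralogs RAB11A and RAB11B had r = -0.324 and rho = -0.248 (permutation p = 0.389 and 0.49; 0.742 for r after adjustment), and r was -0.03 without animals 3 and 7.

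Different probe sets of the same member often disagreed. Of the 90 members 26 had several probe sets, and 12 tested members had at least 2 above the filter. For these 12, correlations of the brightest with the next probe set had a median of 0.112, compared with 0.343 in the 1315 genes that have such a pair. RAB7A had the best agreement with r = 0.892 and rho = 0.842 (permutation p = 0.00108 and 0.00362; 0.013 for r after adjustment over the 12), and r was 0.707 without the 2 farthest animals. Its second probe set also put animal 5 lowest, at 9.03 against 9.70 to 10.37. VPS37A had the opposite pattern with r = -0.833 and rho = -0.648 (permutation p = 0.00811 and 0.0486; 0.0487 for r after adjustment), and r was -0.274 without the 2 farthest animals. Its brightest probe set was highest in animal 5, at 11.22 against at most 10.63, and its second was lowest there, at 8.13 against 8.95 to 9.67. RAB8A, VPS45 and ARF1 also had r below 0, at -0.117, -0.303 and -0.439. VPS4A, STX12, RAB6A and STX10 had r from 0.671 to 0.685. None of these passed the adjustment (permutation test, adjusted p from 0.0866 to 0.858). Without the 2 farthest animals r turned to 0.837 for VPS45 and 0.235 for RAB8A, and was -0.255 for ARF1. In the same way STX12 had 0.819, but VPS4A fell to 0.128, RAB6A to -0.007 and STX10 to -0.082. The direction of a member in animal 5 can thus depend on the probe set.

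Regulators and partners of these families were described in the same way. From lists of SNARE partners, RAB and ARF regulators, coats, endosomal and lysosomal proteins and GLUT4 traffic, 138 of 181 genes were measured and 123 tested. Their median SD was 0.30, and 16, or 13.0%, had an SD over 0.5, against 0.36 and 22.1% for all tested genes. With the adipocyte, connective tissue and leukocyte scores 0 of them passed in limma. At an unadjusted p below 0.05 the counts above and below 0, of 123, were 3 and 1, 3 and 6, and 8 and 12. Over all tested genes the shares were 4.27% and 2.41%, 5.5% and 3.09%, and 9.76% and 6.11%. With the poly(A) control difference 15 (12.2%) fell and 7 (5.69%) rose, near the 11.1% and 4.37% of all tested genes, and without animal 5, where 0 of all genes passed, none did. By list, 2 of 21 tested SNARE partners fell, SCAMP2 (-0.39, limma adjusted p = 0.0311) and SYNGR1 (-0.43, adjusted p = 0.043). Of 25 RAB regulators 3 fell, among them RABAC1, a receptor for prenylated RABs (-0.59, adjusted p = 0.00434), and 2 rose. Of 32 coat genes 6 fell, led in size by the clathrin adaptor subunits AP2M1 (-0.57, adjusted p = 0.00255) and AP2S1 (-0.55, adjusted p = 0.00141), and 2 rose. Of 27 endosomal and lysosomal genes 4 fell, among them SNF8, the ESCRT-II partner of VPS25 (-0.54, adjusted p = 0.0025), and 2 rose, LAMP1 (0.32, adjusted p = 0.00752) and PIK3R4. Of 16 ARF regulators 1 rose, IQSEC1 (0.53, adjusted p = 0.0223).

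In the GLUT4 list 0 of 6 tested genes passed any of the 4 fits. SLC2A4, the gene of GLUT4, had 9.77 ± 0.26, from 9.37 in animal 6 to 10.30 in animal 4. TBC1D4, the GTPase activating protein that holds GLUT4 vesicles back until insulin acts, was both the brightest and the most variable of the list. It ran from 9.85 in animal 7 over 11.28 to 11.95 in animal 8 (11.09 ± 0.72). SNAP23, the SNARE partner of STX4 and VAMP2, had 10.88 ± 0.21.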

How the data were processed

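Poly(A) RNA of 10 samples was labelled with biotin and read on 10 Affymetrix arrays, per the labels' protocols. The authors deposited a linear intensity for each probe set; which software made it is not stated in the labels read here. The mean without the lowest and highest 2% of values was 500.2 on every array, so the authors scaled the arrays alike. All 10 columns were used. Array medians ran from 111 to 134, and the number of arrays limits the precision. Nothing says how the samples were taken. The p-values weigh a slope or correlation against the spread between these samples, and were not extended to other cattle.

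Intensities became log2(intensity + 16). Their array medians spanned 0.24, so arrays were quantile normalized without the 112 control probe sets. Of 24016 other probe sets 13292 had 1 symbol in the platform annotation, 86 several and 10638 none. All 90 member symbols are in the ARS-UCD2.0 gene table, used for names only. Sequences and coordinates are not used here. Members and lists were chosen with earlier results of these data known.

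Slopes are per SD of a covariate, from limma 3.58.1 in R 4.3.3, two-sided, with Benjamini-Hochberg adjustment over 6271 genes at 0.05. A score gene was fitted against the score without it. Pairs used permutation tests with 100000 resamples, enumerated with 9 animals. The fits were tested on simulated data. Named members are those with the 8 highest means, 12 largest and 5 smallest SDs, the brightest and most variable of each family, and those past a fit or, where fewer than 3 passed, the 2 with the smallest p per direction. From partner lists, genes past a fit were named, otherwise the brightest and most variable; other names were chosen after their values were seen. Alternatives were the deposited scaling, pseudocounts of 1 and 64, testing all genes, a stricter filter (75th percentile), averaged probe sets, the control difference as covariate, and each animal left out.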

Additional observations from a re-analysis of the deposited data

Results flagged for a closer look

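In 11 of 71 tested members, or 15.5%, 1 animal lay far from the other 9, so that its gap to the nearest animal, as a share of the gene's whole range, was above Dixon's 95% critical value for 10 samples. The share over all tested genes was 16.7%, and chance alone would flag about 1 in 20 genes. Animal 5 was the one apart in 7 of the 11. It was lowest for VPS25 (0.647), STX18 (0.616), VPS11 (0.529) and VAMP2 (0.508), and highest for VPS26A (0.564), RAB14 (0.531) and VPS37A (0.483). The poly(A) control difference put the same animal apart with 0.851. Animal 6 was lowest for RAB5B (0.737), VPS37B (0.496) and STX4 (0.481). Animal 9 was highest for RAB11B (0.534).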

How the results depend on the processing

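The members' counts past the adipocyte, connective tissue and leukocyte fits were 0 under every alternative run. The other values moved as follows. Without a filter the median member level was 8.53, 22 members had an SD over 0.5 (24.4%, against 39.6% of genes), 1 gene passed the adipocyte fit, 0 the connective tissue fit, 8 the leukocyte fit and 617 the poly(A) control fit, with 5 members. With the filter at the 75th percentile the level was 10.61, 1 of 41 members (2.44%, against 16.6% of genes) had an SD over 0.5 and 10 genes passed the connective tissue fit; the leukocyte fit was not run there, since fewer than 3 markers remained. With a pseudocount of 64 the adipocyte, connective tissue and leukocyte fits called 6, 15 and 1 genes, and 8.45% of members and 14.5% of genes had an SD over 0.5. With the mean of probe sets 5 genes passed the adipocyte and 1 the leukocyte fit, and 0 partner pairs passed. The deposited scaling gave 10 connective tissue genes, and the control difference as covariate gave 0 leukocyte genes. With each animal left out, the ranges were 0 to 1 genes for the adipocyte fit, 0 to 14 for the connective tissue fit, 0 to 21 for the leukocyte fit, 0 to 1043 for the control fit with 0 to 10 members, 8 to 12 members with an SD over 0.5, a median level of 9.03 to 9.15, and 0 to 1 partner pairs. The lowest values of the control fit are without animal 5, where the slopes of VPS26A and STX18 reversed to -0.088 and 0.038; over all animals left out in turn they ran from -0.09 to 0.53 and from -0.39 to 0.04. VPS28 and RAB7A did not pass under the deposited scaling (adjusted p = 0.0549 and 0.06), nor did VPS28, RAB7A and VPS50 without a filter (0.0871, 0.0933 and 0.0558), and VPS25, VPS26A and VPS50 did not with the mean of probe sets (adjusted p = 0.128, 0.0609 and 0.882). Beyond fewer or more genes, probe sets or animals tested, the cause was not tested. No paired analysis was possible because there is 1 group.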
